A study of Mus musculus with 22 samples.

Results

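The 10 genes described here carry glucose into glycolysis and through it, or belong to the response of cells to low oxygen: Slc2a1, Hk2, Aldoa, Pgk1, Ldha, Pdk1, Vegfa, Bnip3, Egln3 and Car9. They were taken by symbol, with no cut on their values, but with earlier results of these data known. All 10 were found among the 23993 gene symbols of a table of cultures and allografts and the 23490 of a table of primary cancers. Each of the 10 passed the filter on low levels (a mean of at least 1 FPKM) in all 11 comparisons, and none of their 220 values was 0. FPKM is the number of sequenced fragments scaled by transcript length and by the fragments mapped in the library, so levels of different genes can be compared within a library.

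Glycolysis splits glucose into pyruvate in the cytosol. Slc2a1 (GLUT1) brings glucose through the plasma membrane, Hk2 traps it by phosphorylation, Aldoa and Pgk1 catalyse steps of the pathway, and Ldha reduces pyruvate to lactate. When oxygen is scarce, the hydroxylases that mark HIF-1α for destruction through VHL lose activity, and HIF dimers bind short DNA motifs beside genes of glycolysis and of blood vessel growth. Pdk1 is a kinase that holds pyruvate back from the mitochondria, Vegfa is the main secreted growth factor for blood vessels, Bnip3 promotes removal of mitochondria, Egln3 (PHD3) is one of the HIF prolyl hydroxylases and is itself a HIF target, and Car9 is a carbonic anhydrase that helps cells to export acid. All 10 are textbook HIF targets, and several also answer to MYC and to growth factor signalling.

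The study compared a pair of ways of growing mouse mammary cells, namely conditional reprogramming (CRC in the labels) and a medium optimised for mammary epithelium (EpiC). All cells came from nulliparous C57Bl/6 females that carried MMTV-Cre, a recombinase driven by a mouse mammary tumour virus promoter, and 1 mutant Trp53 allele, so no group was free of either. On top of these, the genotype called CYP19A1 carried a tet-op-CYP19A1 transgene (human aromatase) with MMTV-rtTA, Brca1het carried 1 floxed exon-11 Brca1 allele (Brca1 fl11/WT) and Brca1hom carried a pair of them (Brca1 fl11/fl11). Each medium had 3 cultures, of which number 1 was CYP19A1, number 2 Brca1het and number 3 Brca1hom. Allografts of such cells grew in the mammary glands of nude NCr Foxn1nu hosts, which lack mature T cells but supply stroma, vessels and myeloid cells of their own. The 7 CRC allografts comprised numbers 1, 2 and 12 with Brca1hom, 10B, 10C and 11C with Brca1het, and 6C with CYP19A1. The 3 EpiC allografts comprised 4C and 5A with Brca1het and 7B with CYP19A1. In the other table, 2 primary Brca1het cancers each came with a CRC culture and an EpiC culture of the same number. The labels leave unsaid whether separate mice or dishes lie behind the libraries within a group, so the p-values measure only the spread between these libraries, which may be technical.

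The summed FPKM of a library ran from 466441 to 825216 among cultures and allografts, and from 607519 to 1.61593e+06 in the table of cancers. Fragment counts cannot be read from FPKM, so counting error is unknown. Mammary epithelial markers (Epcam, Cdh1, Krt8, Krt18, Krt5 and Krt14) summed to between 9583 and 15141 FPKM in the CRC cultures, to 1476 and 1505 in EpiC cultures 1 and 2, and to 4.01 in EpiC culture 3, where Epcam stood at 0.21. In the allografts that sum was 43.6 to 894, and the summed macrophage markers (11 genes, all found) were 4341 to 13955 against 37.7 to 86.5 in the cultures. Fibroblast markers (9 of 9 found) summed to 30.5 to 58.7 in CRC cultures, 3428 to 6411 in EpiC cultures and 687 to 4838 in allografts. Skeletal muscle, adipocyte, neutrophil and lymphocyte markers summed to 11.8 to 647, 1.34 to 122, 30.7 to 557 and 2.32 to 17.8 in allografts, and to 43.6 to 258, 23.0 to 96.2, 0.734 to 817 and 0.0171 to 0.404 in cultures. The label of mammary epithelial cells therefore goes against the markers in EpiC culture 3. Where leaving that library out changed the call of a member, the value without it is given. EpiC cultures 1 and 2 also held a fibroblast sum, of 3428 or more, above their epithelial sum. Leaving out EpiC culture 3 thus does not leave EpiC cultures with epithelial markers alone.

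The upstream sequence of a few of these genes is shown because the members are known for sharing the HIF motif, written RCGTG, where R stands for A or G. RefSeq promoter windows on GRCm38.p6 were found for all 10 genes, as 15 windows in all, and the 250 bases before each start were searched on both strands for ACGTG and GCGTG. Read from the other strand these appear as CACGT and CACGC. Each sequence runs 5′ to 3′ on the gene's strand, with every match in capitals.
Pgk1, chrX:106186850-106187099, plus strand: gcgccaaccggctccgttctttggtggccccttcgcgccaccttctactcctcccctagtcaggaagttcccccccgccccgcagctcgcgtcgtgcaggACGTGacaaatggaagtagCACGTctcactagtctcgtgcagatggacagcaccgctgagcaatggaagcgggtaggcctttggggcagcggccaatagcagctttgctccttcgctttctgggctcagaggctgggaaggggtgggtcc
Ldha, first listed start, chr7:46845554-46845803, plus strand: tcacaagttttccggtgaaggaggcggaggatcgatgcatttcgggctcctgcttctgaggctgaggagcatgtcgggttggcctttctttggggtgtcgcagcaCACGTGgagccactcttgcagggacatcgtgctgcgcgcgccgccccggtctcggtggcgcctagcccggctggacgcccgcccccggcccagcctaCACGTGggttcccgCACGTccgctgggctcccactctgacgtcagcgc
Hk2, chr6:82774455-82774704, minus strand: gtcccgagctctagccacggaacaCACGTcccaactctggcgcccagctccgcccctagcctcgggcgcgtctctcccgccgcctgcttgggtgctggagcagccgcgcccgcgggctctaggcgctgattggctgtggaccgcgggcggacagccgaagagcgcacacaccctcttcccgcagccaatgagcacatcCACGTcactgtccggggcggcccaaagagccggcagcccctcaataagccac
Bnip3, chr7:138909507-138909756, minus strand: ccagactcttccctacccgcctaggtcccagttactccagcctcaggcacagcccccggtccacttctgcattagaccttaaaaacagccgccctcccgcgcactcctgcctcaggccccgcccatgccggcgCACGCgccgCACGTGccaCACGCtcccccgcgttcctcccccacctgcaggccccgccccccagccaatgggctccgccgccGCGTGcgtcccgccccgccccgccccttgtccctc
Pdk1, first listed start, chr2:71872974-71873223, plus strand: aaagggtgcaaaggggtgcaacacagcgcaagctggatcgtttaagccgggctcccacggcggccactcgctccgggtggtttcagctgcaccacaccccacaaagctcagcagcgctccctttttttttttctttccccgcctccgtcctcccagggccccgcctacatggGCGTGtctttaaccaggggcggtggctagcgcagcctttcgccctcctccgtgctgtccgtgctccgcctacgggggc
Vegfa, first listed start, chr17:46032378-46032627, minus strand: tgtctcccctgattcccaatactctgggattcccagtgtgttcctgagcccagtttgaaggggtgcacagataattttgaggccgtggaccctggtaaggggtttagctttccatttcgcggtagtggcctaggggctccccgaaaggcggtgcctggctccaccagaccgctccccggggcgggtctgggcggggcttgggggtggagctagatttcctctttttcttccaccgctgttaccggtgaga
At least 1 of the motifs stood in 12 of the 15 windows and, counting any window, in all 10 genes. That last count has no share of all genes beside it. Vegfa enters it only through window 2, and Aldoa only through windows 2 and 3. For window 2 of Vegfa, the first listed Ldha window and the Egln3 window, the bases checked after the start were not found in the gene's transcripts. The counts include these windows. In the first listed window of each gene at least 1 motif stood in 8 of 10, against 38.6% of 27025 first listed windows of all genes. In these first listed windows ACGTG was found in 7 of the 10 genes, against 16.6% of all genes, and GCGTG in 3 of the 10, close to the 28.2% of all genes. ACGTG overlaps the E-box CACGTG, which MYC and other factors bind and which 6.02% of all windows held. That longer word occurs in the windows of Ldha and Bnip3, and being a palindrome it counts as a match on each strand. The first listed windows of Vegfa and Aldoa held neither motif, which says only that these letters are not in those 250 bases. A match is a description of the sequence, and binding was not measured here.

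Levels differed widely between the genes (plot of values by library). Ldha and Aldoa stood highest, at 336 to 1927 FPKM and 366 to 2240 FPKM over the 16 cultures and allografts. Pgk1 came next at 92.7 to 634. The transporter Slc2a1 ranged from 13.5 to 202, Bnip3 from 17.4 to 174, Egln3 from 7.31 to 118, Vegfa from 6.65 to 118 and Pdk1 from 2.70 to 38.2. Hk2 ranged from 3.57 to 17.4, and Car9 was lowest at 0.189 to 10.3. Mouse Pgk1, Ldha and Aldoa have near-identical processed copies, so their values may be split or shared between copies.

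**Figure D1:**
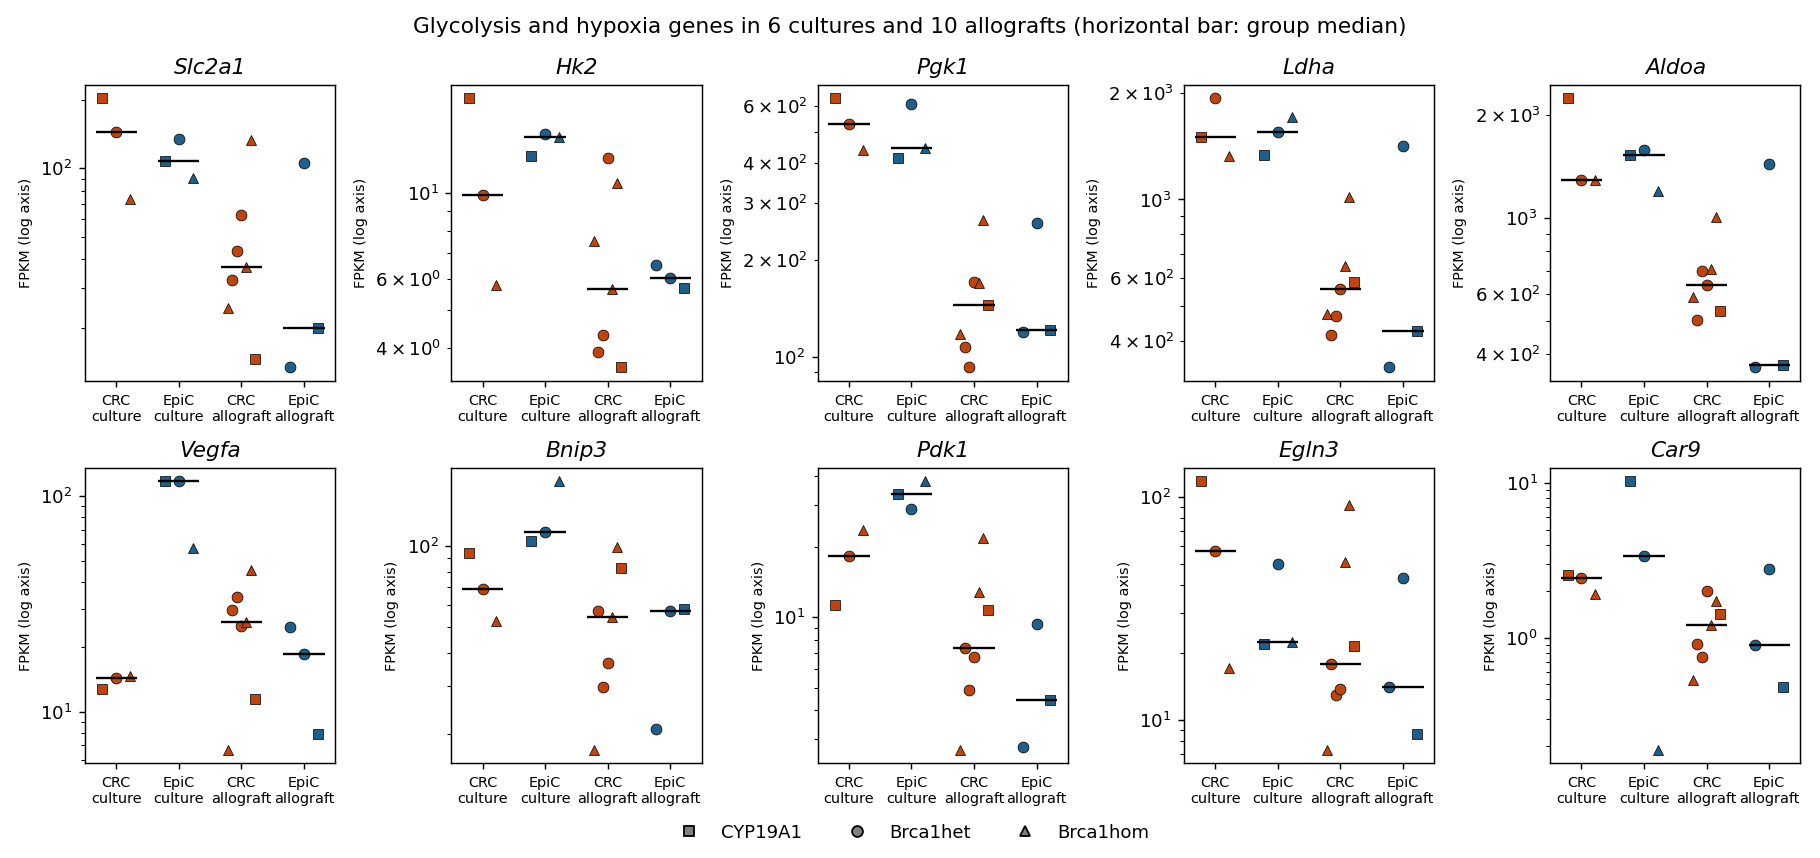
FPKM of each gene in every culture and allograft, on a log axis that differs between panels, with points shaped by genotype and a bar at the group median. All allografts lie below all cultures for Pgk1 alone, and Vegfa is at 57.7 to 118 in EpiC cultures against 12.7 to 14.7 in CRC cultures.

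The medium was compared first in the 6 cultures, where 1 of the 10 genes passed the test and it was Vegfa, lower in CRC. The genes of the glycolytic steps stood at similar levels in both media. Over all 11837 genes tested, 23.2% were called, 11.4% higher and 11.7% lower in CRC. Each test used limma on log2(FPKM + 1) with genotype in the model, and calls were made where the p adjusted over all genes by the Benjamini-Hochberg method was under 0.05.

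Vegfa stood at 12.7, 14.4 and 14.7 FPKM in CRC cultures 1, 2 and 3, and at 118, 118 and 57.7 in EpiC cultures 1, 2 and 3. The groups did not overlap, and the lowest EpiC value was that of culture 3. The difference was −2.65 on the log2 scale (SE 0.29, 95% interval −3.43 to −1.88), a 6.29-fold lower level in CRC (limma adjusted p = 0.0122). Without EpiC culture 3, whose epithelial markers were near 0, it was −3.03 (adjusted p = 0.00332). The call was lost without CRC or EpiC culture 1 or 2, at −2.42 to −2.51 with adjusted p of 0.0565 to 0.0856. With genotype in the model and 1 culture per genotype and medium, leaving out a culture also takes its same-numbered partner out of this contrast. This holds for every comparison of the 6 cultures here, also for those without EpiC culture 3. The summed fibroblast markers, given above, separated the same groups, and their part in the difference was not tested.

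Pdk1 and Bnip3 also had every CRC culture below every EpiC culture. The share of all genes whose groups do not overlap was not counted, for this or any other comparison. Overlap or its lack is therefore only a description of these genes. Pdk1, the kinase that limits pyruvate entry into mitochondria, stood at 11.3, 18.3 and 23.6 FPKM in CRC cultures 1 to 3 and at 33.5, 28.8 and 38.2 in EpiC cultures 1 to 3. Its difference of −0.93 (SE 0.24) missed the threshold (limma adjusted p = 0.0553). Bnip3 stood at 94.1, 68.8 and 52.6 in CRC and at 104, 113 and 174 in EpiC cultures 1 to 3, a difference of −0.85 (SE 0.34, adjusted p = 0.13). The widest Bnip3 gap was in the pair that holds EpiC culture 3, and without that library the difference was −0.43 (adjusted p = 0.268).

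Among the glycolytic genes the 2 media overlapped for every gene. Slc2a1 was at 202, 144 and 73.6 FPKM in CRC cultures 1 to 3 and at 108, 135 and 91.3 in EpiC cultures 1 to 3, so the CRC values spread more widely than the EpiC values. Its difference was 0.23 (95% interval −0.51 to 0.97). Pgk1 averaged 534 ± 97.3 (SD, n = 3) in CRC and 489.9 ± 105.9 (SD, n = 3) in EpiC, and Ldha 1582 ± 311 against 1529 ± 189. Their log2 differences were 0.13 (−0.46 to 0.72) and 0.04 (−0.50 to 0.58), and that of Aldoa was 0.12 (−0.46 to 0.71). Hk2 ran from 5.80 to 17.4 in CRC and from 12.4 to 14.1 in EpiC, with a difference of −0.38 (−1.29 to 0.53). A 2-fold change lies outside the intervals of Pgk1, Ldha, Aldoa and Slc2a1 and inside that of Hk2.

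Egln3 and Car9 varied widely within a medium. Egln3 stood at 118, 57.0 and 17.0 FPKM in CRC cultures 1 to 3, and at 21.9, 49.9 and 22.2 in EpiC cultures 1 to 3. Car9 was at 2.53, 2.43 and 1.91 in CRC, and at 10.3, 3.38 and 0.189 in EpiC. EpiC cultures 1 and 3 thus held the highest and the lowest Car9 of the 16 libraries. Without EpiC culture 3 the Car9 difference went from −0.25 to −1.02 (adjusted p = 0.141), and that of Egln3 from 0.73 to 1.28 (adjusted p = 0.163). CRC culture 1 was the highest of its group for 7 of the 10 genes and CRC culture 3 the lowest for 8, and as each genotype has 1 culture per medium, genotype and culture cannot be told apart there.

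Other genes of the pathways, from lists of 65 that are not members, differed between the media in part. Of 62 tested in the cultures, 5 were higher and 16 lower in CRC, with a median log2 difference of −0.30 against 0.04 over all genes. The shares of all genes called were 11.4% higher and 11.7% lower. Genes called lower in CRC included P4ha2 and P4ha1, subunits of the collagen prolyl hydroxylase, at 29.6 ± 8.52 against 205 ± 47.6 FPKM and 26.4 ± 18.9 against 156 ± 18.7 (SD, n = 3 each). The lipase inhibitor Angptl4 (14.1 ± 15.2 against 126 ± 114), the neuronal enolase Eno2 (1.96 ± 2.30 against 22.7 ± 2.11) and the VEGF-family ligands Vegfc (1.90 ± 1.29 against 22.3 ± 10.3) and Figf (VEGF-D) were lower too. Car12, a carbonic anhydrase like Car9, was higher in CRC at 51.6 ± 16.2 against 5.23 ± 4.89, and so was the aldolase Aldoc. Within the oxygen-sensing genes, Egln1 was lower in CRC (32.3, 31.7 and 23.5 against 80.9, 83.9 and 68.7 in cultures 1 to 3, limma adjusted p = 0.0118), as were Vhl (9.54 ± 1.16 against 24.4 ± 7.90, adjusted p = 0.0258) and the low-level Arnt2. Hif1a was not called, at 101.4 ± 35.2 against 132 ± 27.5.

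The second question was how the genes stood after growth as allografts. Across both media 6 of the 10 were called and all 6 fell relative to the cultures: Slc2a1, Hk2, Pgk1, Ldha, Aldoa and Pdk1. Vegfa, Bnip3, Egln3 and Car9 did not pass the test, with differences also below 0. Over 12325 genes tested 34.5% were called, 18.2% higher and 16.4% lower in allografts. The median difference of the members was −1.12 against 0.01 over all genes. In bulk tissue, fewer cells of a type and less RNA per cell cannot be told apart. Marker sums were higher in every allograft than in every culture for macrophages and lymphocytes, as given above. The same held for endothelial (9 of 9 found, 68.7 to 240 FPKM against 6.42 to 15.7) and erythroid markers (5 of 6 found, 135 to 1926 against 0.967 to 5.06). The epithelial sum of every allograft, at most 894, was below that of every culture but EpiC culture 3, at 4.01. Within CRC cells the fibroblast sum was 30.5 to 58.7 FPKM in cultures and 1359 to 4838 in allografts. The part of these cell types in the fall of the members was not tested.

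Pgk1 was the member with no overlap between states. It stood at 634, 529 and 440 FPKM in CRC cultures 1 to 3 and at 413, 611 and 446 in EpiC cultures 1 to 3. The CRC allografts ran from 92.7 through a median of 144 to 267, and EpiC allografts 7B, 4C and 5A stood at 121, 120 and 260. Every allograft lay below the lowest culture. The difference was −1.76 (SE 0.26), or 3.40-fold lower (limma adjusted p = 0.000145).

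Ldha was at 1497, 1927 and 1322 FPKM in the CRC cultures and at 1331, 1547 and 1708 in the EpiC cultures. The CRC allografts ran from 416 through a median of 559 to 1013, and EpiC allografts 7B, 4C and 5A stood at 425, 336 and 1417. Only EpiC allograft 5A reached the range of the cultures. The difference was −1.42 (SE 0.29, 2.68-fold lower, limma adjusted p = 0.00197). Aldoa was at 2240, 1297 and 1290 in the CRC cultures and at 1531, 1583 and 1201 in the EpiC cultures. Its CRC allografts ran from 506 through 638 to 1009, and EpiC allografts 7B, 4C and 5A were at 373, 366 and 1439, so that 5A again reached the culture range. Aldoa differed by −1.28 (SE 0.30, 2.43-fold lower, adjusted p = 0.00442).

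Slc2a1, at 73.6 to 202 FPKM in the 6 cultures, ran in the CRC allografts from 14.7 through a median of 37.0 to 133, and stood at 20.2, 13.5 and 105 in EpiC allografts 7B, 4C and 5A. The transporter was thus within the culture range in CRC allograft 2 and EpiC allograft 5A, and below it in the other 8. It differed by −1.81 (SE 0.48, limma adjusted p = 0.0095). Pdk1, at 11.3 to 38.2 in the cultures, ran from 2.70 through 7.37 to 21.8 in the CRC allografts and stood at 4.44, 2.78 and 9.36 in EpiC allografts 7B, 4C and 5A. It differed by −1.57 (SE 0.39, 2.97-fold lower, adjusted p = 0.00666). Hk2, at 5.80 to 17.4 in the cultures, ran from 3.57 through 5.66 to 12.3 in the CRC allografts and was at 5.71, 6.55 and 6.06 in the EpiC allografts. Its difference of −0.78 (SE 0.28, adjusted p = 0.0445) lay close to the threshold, and the call held in 4 of 16 fits that each left out 1 library (highest adjusted p 0.156, without CRC culture 1). It was lost without EpiC culture 3 (adjusted p = 0.0657), with CRC allografts 10B and 10C averaged as 1 sample (adjusted p = 0.0602) and with no filter on low genes (adjusted p = 0.0646).

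The members that were not called spread widely in the allografts. Egln3 ran from 7.31 to 92.1 FPKM in the CRC allografts (median 17.8), with CRC allografts 2 and 12 at 92.1 and 51.0, and from 8.62 to 43.2 in the EpiC allografts, against 17.0 to 118 in the cultures. The difference was −0.96 (95% interval −2.18 to 0.27). Bnip3 ran from 17.4 to 99.2 in all allografts and from 52.6 to 174 in the cultures (−0.91, limma adjusted p = 0.0741). Car9 ran from 0.479 to 2.79 and from 0.189 to 10.3 (−0.71, adjusted p = 0.145). Without EpiC culture 3, the library with the lowest Car9, it was called lower in allografts (−0.96, adjusted p = 0.0296), and also within EpiC cells (−1.66, adjusted p = 0.0331). For Vegfa the value of −0.79 (adjusted p = 0.27) averages over media that differed, as described below.

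**Figure D2:**
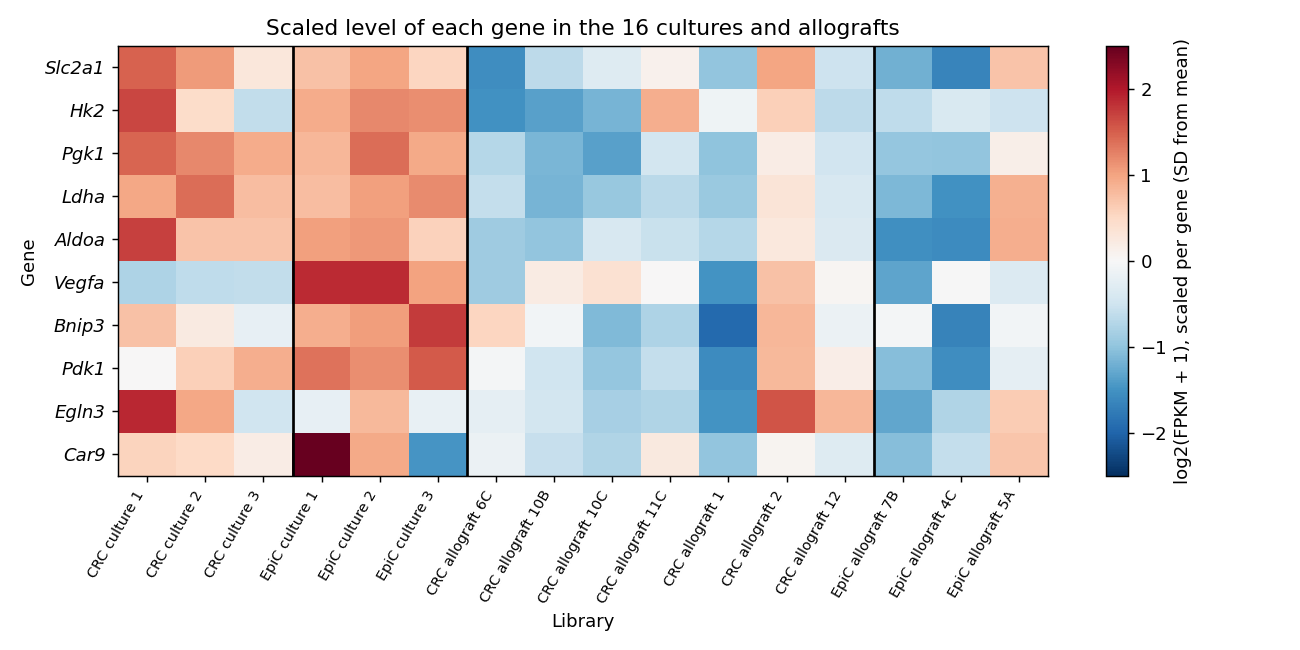
Level of each gene in each of the 16 libraries, as log2(FPKM + 1) scaled to SD units around the gene's own mean (colour scale), with lines between CRC cultures, EpiC cultures, CRC allografts and EpiC allografts. CRC allograft 2 and EpiC allograft 5A are the allografts with a mean scaled level above 0, at 0.638 and 0.28.

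Within the allografts the genes tended to stand high in the same libraries. The mean scaled level over the 10 genes was 0.638 in CRC allograft 2 and 0.28 in EpiC allograft 5A, and from −1.12 to −0.183 in the other 8. CRC allograft 2 was the highest of the 7 CRC allografts for 8 genes (all but Hk2 and Car9), EpiC allograft 5A was the highest of the 3 EpiC allografts for 7, and CRC allograft 1 was the lowest CRC allograft for 5. EpiC allograft 5A also had the highest summed FPKM of the 16 libraries, at 825216, with CRC culture 1 next at 618933. The part of that library-wide sum in the levels of EpiC allograft 5A was not tested. Erythroid markers were also highest in CRC allograft 2 and EpiC allograft 5A, summing to 1926 and 1708 FPKM, with CRC allograft 11C next at 1601 and the other allografts at 135 to 1003. Summed macrophage markers were 9357 in CRC allograft 2 and 13955 in EpiC allograft 5A, and 4341 to 13791 in the others. The part of other cell types in these levels was not tested. With both libraries left out, 8 of the 10 genes were called lower in allografts, Bnip3 (adjusted p = 0.0322) and Egln3 (adjusted p = 0.0296) being added. These 2 libraries were chosen after seeing that they held the highest levels of these genes, so leaving them out deepens the fall by construction, and the count is no support for it.

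Correlations between the members were computed over the 10 allografts for all 45 pairs, on log2(FPKM + 1), with p-values from 100000 permutations. Pearson's r was above 0 for 44 pairs. The permutations shuffled all 10 libraries freely, whatever their medium or genotype. Pairs of other genes were not computed, so the counts have no background beside them. After adjustment over the 45 pairs, r passed for 12 pairs, and for 3 of these Spearman's rho passed as well. Ldha with Aldoa gave r = 0.935 (permutation p = 0.00017, adjusted p = 0.00765) and rho = 0.879 (p = 0.00149, adjusted p = 0.025). Pdk1 with Egln3 gave r = 0.905 (permutation p = 0.00034, adjusted p = 0.00765) and rho = 0.915 (p = 0.00068, adjusted p = 0.025). Slc2a1 with Aldoa gave r = 0.874 (permutation p = 0.00125, adjusted p = 0.0112) and rho = 0.879 (p = 0.00167, adjusted p = 0.025). Without the 2 allografts farthest from the median of the gene named first, these 3 values of r were 0.761, 0.786 and 0.733, and within the 7 CRC allografts they were 0.845, 0.96 and 0.845. Of the 12 pairs, 6 kept an r over 0.6 without the 2 farthest allografts, the others of these being Pgk1 with Ldha (0.901 to 0.675), Pgk1 with Car9 (0.836 to 0.728) and Bnip3 with Pdk1 (0.872 to 0.736). Among the pairs that did not, Pgk1 with Aldoa went from 0.755 to 0.236, and Slc2a1 with Ldha from 0.804 to 0.437, without CRC allograft 2 and EpiC allograft 5A. Neither Hk2 nor Vegfa had a pair that passed.

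**Figure D3:**
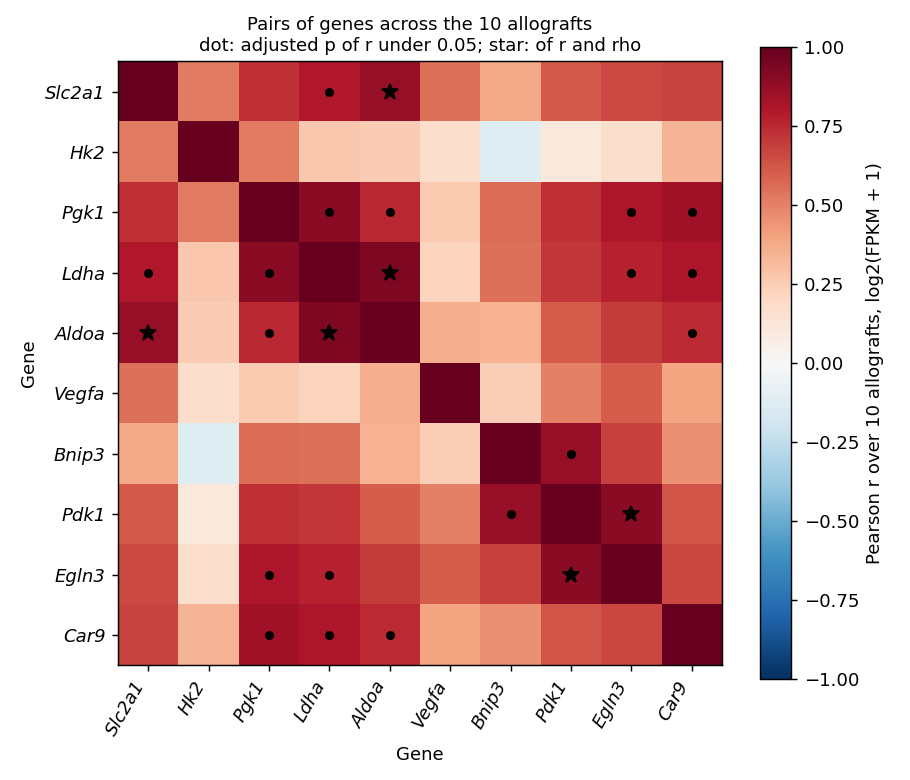
Pearson's r of each pair of genes over the 10 allografts on log2(FPKM + 1), with a dot where the adjusted p of r is under 0.05 and a star where that of rho is too. The 3 starred pairs are Slc2a1 with Aldoa, Ldha with Aldoa, and Pdk1 with Egln3; the row of Hk2 has no mark.

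Genes whose pattern was most like that of the 10 were sought over all 16 libraries, among 8933 genes averaging 5 FPKM or more, by Pearson's r with the mean scaled level. The 5 highest were Sdhd (r = 0.944), a membrane subunit of succinate dehydrogenase, the mitochondrial adenylate kinase Ak4 (0.937), Acyp1 (0.93), the MAP kinase kinase Map2k1 (0.912) and the phosphoglucomutase Pgm2 (0.909). Ak4 stood at 10.5 to 15.96 FPKM in the cultures and 0.906 to 8.86 in the allografts, and Sdhd at 129 to 162 and 76.0 to 133. These values of r include the shift between cultures and allografts, which all libraries share, and are a description with no test.

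The change from culture to allograft was then tested within each medium. In CRC cells 4 genes were lower in allografts, namely Slc2a1 (−1.75, SE 0.64, limma adjusted p = 0.0415), Pgk1 (−1.89, SE 0.34, adjusted p = 0.000601), Ldha (−1.50, SE 0.39, adjusted p = 0.00765) and Aldoa (−1.27, SE 0.40, adjusted p = 0.0211). Over all genes 39.6% were called in this comparison, 21.2% higher and 18.4% lower in allografts. Slc2a1 stayed called in 7 of 16 fits that each left out 1 library, and lost its call with CRC allografts 10B and 10C averaged as 1 sample (adjusted p = 0.064) and with no filter on low genes (adjusted p = 0.073). The calls of Slc2a1 (−1.22, adjusted p = 0.21) and Aldoa (−0.93, adjusted p = 0.128) were lost without CRC culture 1, and those of Slc2a1 (−1.83, adjusted p = 0.109) and Ldha (−1.31, adjusted p = 0.0621) without CRC culture 2. In EpiC cells 3 genes were lower, namely Vegfa, Pdk1 and Pgk1, against 14.2% of all genes called, 7.94% higher and 6.26% lower.

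Vegfa fell in EpiC cells from 118, 118 and 57.7 FPKM in cultures 1 to 3 to 7.91, 24.7 and 18.5 in allografts 7B, 4C and 5A. Every EpiC allograft lay below every EpiC culture, and the difference was −2.70 (SE 0.54), or 6.52-fold lower (limma adjusted p = 0.00466). In CRC cells Vegfa stood at 12.7 to 14.7 in the cultures and ran in the allografts from 6.65 (CRC allograft 1) through a median of 26.1 to 45.7 (CRC allograft 2), with 5 allografts above the cultures and 2 below. That difference was 0.53 (95% interval −0.44 to 1.51, adjusted p = 0.371). The difference between the media in this change was itself tested, as the medium by state interaction, and was 3.24 (SE 0.71, 95% interval 1.71 to 4.76, adjusted p = 0.00874). Vegfa was the 1 member called there, against 12.2% of all genes (6.35% above 0 and 5.87% below), and the call held without any single library (2.74 to 3.49, adjusted p at most 0.0381). Cultures of the 2 media enter this comparison and the comparison of cultures alike, so the interaction is not independent of the lower Vegfa in CRC cultures.

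Pdk1 fell in EpiC cells from 33.5, 28.8 and 38.2 FPKM in cultures 1 to 3 to 4.44, 2.78 and 9.36 in allografts 7B, 4C and 5A, with no overlap (−2.37, SE 0.56, 5.18-fold, limma adjusted p = 0.0125). In CRC cells the difference was −1.01 (SE 0.47, adjusted p = 0.0989), and the interaction was not called (1.36, 95% interval −0.21 to 2.93, adjusted p = 0.263). Pgk1 differed by −1.59 in EpiC cells (SE 0.41, adjusted p = 0.0198). Bnip3 stood at −1.54 in EpiC cells and −0.47 in CRC cells, and neither was called. The EpiC counts turned on single libraries: 1 member was called without EpiC culture 1 or without allograft 7B, and 7 without allograft 5A. Calls over all genes moved as well, from 1750 to 997 without EpiC culture 1 and to 2200 without allograft 5A. Without EpiC culture 3 the count of members was 4, with Vegfa at −2.98 (limma adjusted p = 0.00429).

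**Figure D4:**
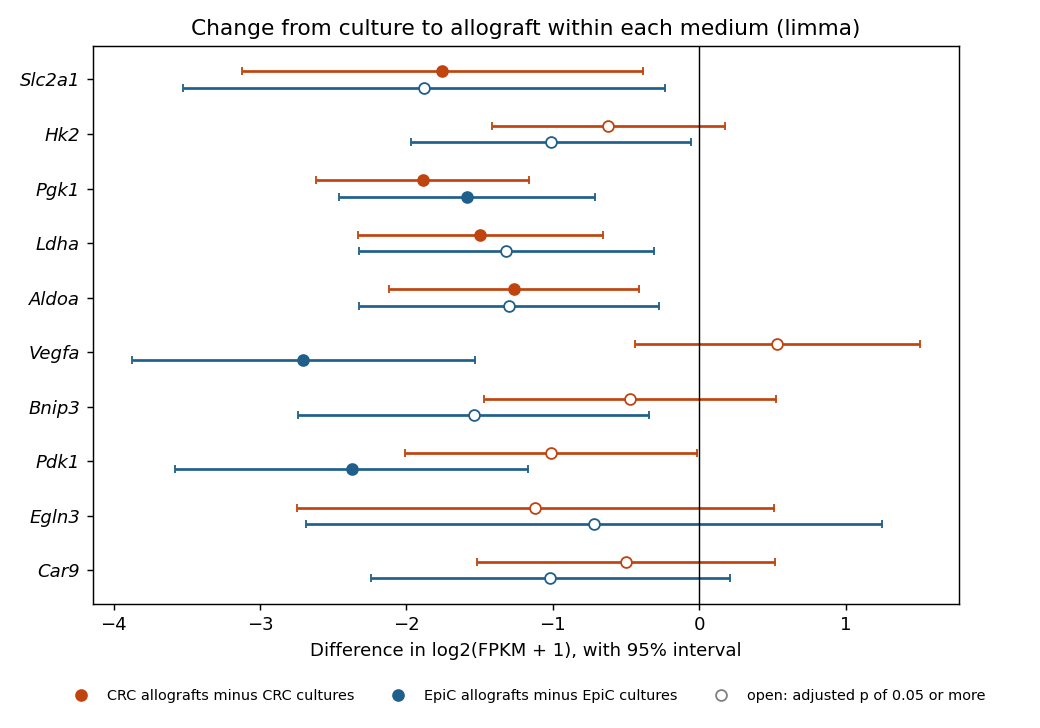
Difference in log2(FPKM + 1) between allografts and cultures of each gene, separately for CRC and EpiC cells, with 95% intervals from limma; filled points have an adjusted p under 0.05. Vegfa lies at 0.53 in CRC and at −2.70 in EpiC cells, and Pgk1 at −1.89 and −1.59.

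The other genes of the pathways followed the members in part. Of 64 tested over both media, 7 were higher and 23 lower in allografts, with a median of −0.36. Over all genes 18.2% were called higher and 16.4% lower. Among glycolytic enzymes and glucose transporters that are not members, 7 of 14 were lower and 1 was higher, the muscle phosphofructokinase Pfkm (33.6 ± 9.93 FPKM, n = 10, against 24.7 ± 9.91, n = 6; SD). The largest falls were those of Aldoc (5.36 ± 5.17 against 32.7 ± 13.95), Eno1 (90.6 ± 69.2 against 185 ± 29.4), which has near-identical copies, and the liver phosphofructokinase Pfkl (36.7 ± 30.9 against 74.3 ± 17.7). Of 17 other HIF targets 9 were lower and none was higher, with the stress-induced mTOR inhibitor Ddit4 at 24.8 ± 10.4 against 169 ± 36.8, the oxidoreductase Ero1l at 12.4 ± 7.33 against 83.2 ± 44.4 and Fam162a at 274 ± 206 against 916 ± 246. Within CRC cells 5 of the 17 were lower and 2 were higher, Angptl4 and P4ha1, while within EpiC cells 9 were lower and 0 higher. Over all genes 18.4% were lower and 21.2% higher within CRC cells, and 6.26% and 7.94% within EpiC cells. The interaction was called for 4 of the 17, all above 0, among them P4ha2, Angptl4 and P4ha1. Of all genes 6.35% were called above 0 there and 5.87% below. Lactate and proton export fell for Car12, the transporter chaperone Bsg (388 ± 92.0 against 940 ± 383) and the monocarboxylate transporter Slc16a1. Car12 was called lower within CRC cells but not within EpiC cells, and its interaction was called, below 0. Pfkfb4, an enzyme that sets fructose-2,6-bisphosphate, was higher in allografts (6.19 ± 1.72 against 2.63 ± 1.51), and its relative Pfkfb2 was lower. Both were called in these directions within CRC cells, while within EpiC cells 0 of the 4 enzymes of that list were called. The interaction was called for both, above 0 for Pfkfb4 and below 0 for Pfkfb2. In the list of VEGF ligands and receptors 5 of 9 were higher and none was lower, where 18.2% of all genes were higher, led by the receptors Flt1 (6.08 ± 2.52 against 1.25 ± 1.295) and Kdr and the ligand Vegfc; Kdr is also among the endothelial markers, whose sum was higher in allografts as given above. Within CRC cells 5 of these 9 were called higher in allografts and within EpiC cells 0, and the interaction was called for 1 of them, Vegfc.

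Hif1a, the regulated subunit of HIF-1, was lower in allografts as mRNA. It stood at 136, 102 and 65.7 FPKM in CRC cultures 1 to 3 and at 118, 115 and 164 in EpiC cultures 1 to 3, and ran from 27.1 to 74.1 in the 10 allografts, with 74.1 in CRC allograft 2 and 27.1 in EpiC allograft 5A. The difference was −1.13 (SE 0.23, limma adjusted p = 0.0017). The 2 allografts with the highest member levels thus had the highest and the lowest Hif1a. Egln1 was lower in EpiC allografts than in EpiC cultures (35.3 ± 1.69 against 77.8 ± 8.06, n = 3 each; adjusted p = 0.0129). Epas1, at 1.07 to 6.21, Arnt, at 12.6 to 41.9, Egln2, at 9.42 to 38.1, and Vhl, at 8.38 to 32.9, were not called between allografts and cultures. The HIF proteins are controlled mainly by their stability, which these data do not measure.

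The medium in which the cells had been grown was next compared among the allografts. No member was called among the 10 allografts by limma with genotype in the model, none had an unadjusted p under 0.05, and all 10 overlapped between the groups. Over all genes 0.00833% were called (1 of 11999), and 1011 had an unadjusted p under 0.05. The intervals were wide, from −1.56 to 1.62 for Slc2a1 and from −0.69 to 1.60 for Vegfa, and a 2-fold difference in either direction lies inside that of Slc2a1. EpiC allograft 5A held the highest Ldha, Aldoa and Car9 of all allografts, and EpiC allograft 4C the lowest Slc2a1, Ldha and Aldoa, although both are Brca1het.

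Genotype was compared among CRC allografts, 3 Brca1hom against 3 Brca1het. No member was called and none had an unadjusted p under 0.05 with limma, while 0% of 11928 genes were called and 1246 had an unadjusted p under 0.05. With no share of all genes counted beside it, Brca1hom allografts 1, 2 and 12 included both the highest and the lowest of the 6 values for 5 members. Slc2a1 at 24.4, 133 and 37.0 FPKM against 32.5, 43.6 and 62.7 in Brca1het 10B, 10C and 11C was 1 of these, as was Pdk1 at 2.70, 21.8 and 12.9 against 7.37, 4.86 and 6.73. Egln3 showed the largest difference, 1.13 (95% interval −0.77 to 3.03), at 7.31, 92.1 and 51.0 against 17.8, 12.9 and 13.8. CYP19A1 libraries were compared with Brca1het libraries over cultures and allografts (4 against 7). Again no member was called, against 0.0163% of all genes, and 1 member, Vegfa, had an unadjusted p under 0.05 (−0.80, 95% interval −1.38 to −0.21, limma adjusted p = 0.812). CYP19A1 allografts 6C and 7B had Vegfa at 11.5 and 7.91, below the 5 Brca1het allografts at 18.5 to 34.2, while the CYP19A1 and Brca1het cultures were close, at 12.7 against 14.4 in CRC and 118 against 118 in EpiC.

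In the table of cancers, 2 libraries a group gave no call for any of the 10 genes in any of 3 comparisons (plot of values by cancer). The cultures of these cancers kept epithelial markers, summing to 1560 to 9289 FPKM against 1887 and 3527 in the cancers, and had fewer macrophage markers, at 69.9 to 233 against 1473 and 1715. Levels cannot be set beside those of the other table, since the tables were normalised separately. Of the 60 member values there, 33 carried more than 6 digits and 32 of these ended in 5, the form of a mean of a pair of values, so some libraries may already be averages.

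**Figure D5:**
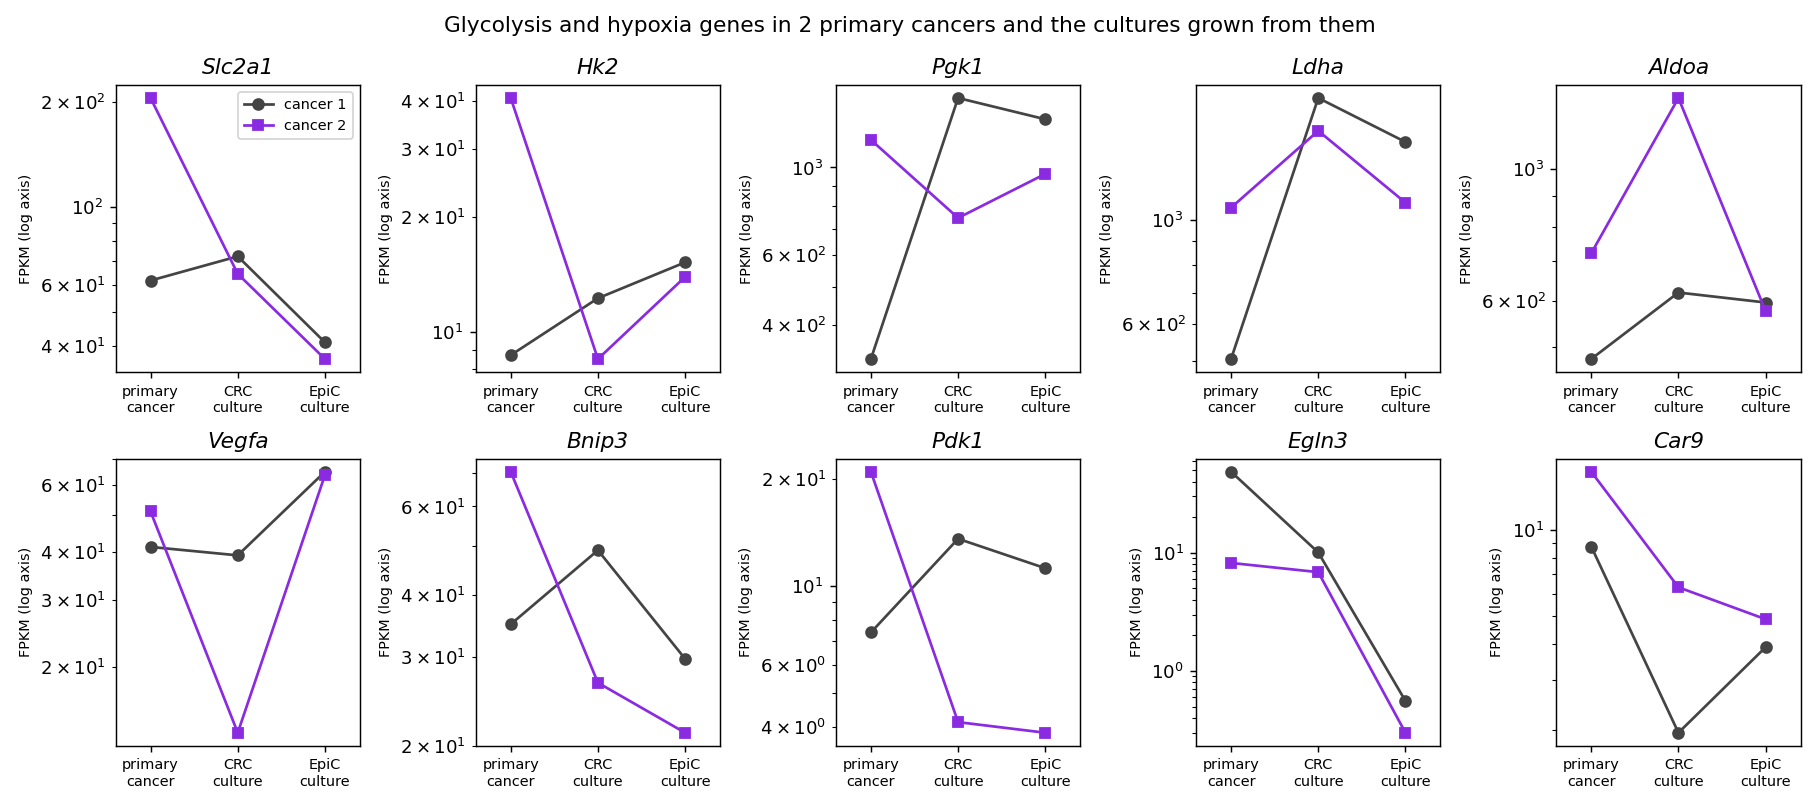
FPKM of each gene in primary cancers 1 and 2 and in the CRC and EpiC cultures of the same number, joined by lines, on log axes that differ between panels. Egln3 is below 1 FPKM in both EpiC cultures, and Hk2, Slc2a1, Bnip3, Pdk1 and Car9 are highest in primary cancer 2.

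Primary cancer 2 stood above primary cancer 1 for 9 of the 10 genes. This sets 1 library against 1, and the share of all genes higher in cancer 2 was not counted. Relative to the geometric mean of the 6 libraries, the median gene stood at 1.14 in cancer 1 and 0.899 in cancer 2. Hk2 was at 8.71 in cancer 1 and 40.8 in cancer 2, Slc2a1 at 61.6 and 205, Pgk1 at 329 and 1174, and Ldha at 505 and 1061 FPKM. Pdk1 likewise stood at 7.40 and 21.0, and Bnip3 at 34.9 and 70.4. Egln3 was the exception, at 48.6 in cancer 1 and 8.21 in cancer 2. Summed neutrophil markers (5 of 6 found) were 258 and 1496, and summed epithelial markers 1887 and 3527, in cancers 1 and 2, and their part in this was not tested.

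Egln3 differed most of the members between EpiC cultures and either other group. It stood at 48.6 and 8.21 FPKM in primary cancers 1 and 2, at 10.1 and 6.87 in the CRC cultures and at 0.557 and 0.3 in the EpiC cultures, in the same order in both cancers. The EpiC cultures differed from the cancers by −3.91 (SE 0.85, unadjusted p = 0.00266 and adjusted p = 0.144 by limma), and this was the only member with an unadjusted p under 0.05 in that comparison. With levels below 1 FPKM, the difference on the log2(FPKM + 1) scale understates that in FPKM. It did not pass where 0.677% of all genes were called, 0.253% higher and 0.424% lower in the EpiC cultures. Without primary cancer 2 the value was −5.12 (adjusted p = 0.0375), but that fit holds 1 primary cancer, the one at 48.6, which is assumed to vary like the other groups. CRC cultures lay above EpiC cultures by 2.71 (SE 0.85, unadjusted p = 0.0158, adjusted p = 1), the only member with an unadjusted p under 0.05 there, where 0.00815% of genes were called.

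CRC cultures of cancers against the cancers gave no member with an unadjusted p under 0.05, and 0.889% of all genes were called, 0.416% higher and 0.473% lower in the cultures. Ldha was at 1817 and 1547 FPKM in CRC cultures 1 and 2 and at 505 and 1061 in the cancers, so both cultures lay above both cancers (1.19, 95% interval −0.45 to 2.83). Car9 was at 1.96 and 6.31 in CRC cultures and at 3.90 and 4.88 in EpiC cultures 1 and 2, below its 8.76 and 15.999 in the cancers; the differences were −1.47 (−3.06 to 0.12) and −1.26 (−2.85 to 0.32). Vegfa stood at 39.2 and 13.4 in CRC cultures and at 64.9 and 63.6 in EpiC cultures, lower in CRC within both cancers (−1.44, −2.88 to 0.01, limma adjusted p = 1), and at 41.2 and 51.0 in the cancers. Slc2a1 was also ordered alike in both pairs of cultures, at 72.3 and 64.4 in CRC and 41.1 and 36.8 in EpiC (0.80, −0.75 to 2.34). Egln3 differed by −1.20 (−3.22 to 0.83) between CRC cultures and cancers. Pgk1, Hk2, Slc2a1, Bnip3 and Pdk1 were higher in the CRC culture than in its cancer for number 1 and lower for number 2. Relative to the geometric mean of the 6 libraries, the median gene stood at 1.15 in CRC culture 1 and 0.776 in CRC culture 2. The part of this library-wide shift in these levels was not tested. None of the 59 pathway genes tested in this table that are not members was called in any of these comparisons.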

How the data were processed

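Poly(A) RNA was sequenced in pairs of reads on an Illumina HiSeq from TruSeq libraries, per the labels' protocols. FastQC, Trim Galore, TopHat, Cufflinks and the mm9 build are named, per the submitters' processing notes; versions, gene annotation and scaling were not given in the sources used here. The authors deposited FPKM values, as 1 table of 16 cultures and allografts and 1 table of 6 cancer libraries, and these were tested as deposited and never across the tables. In the table of cancers, 407 entries that shared 162 symbols were summed by symbol, none of them a member.

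Differences were tested with limma 3.58.1 (R 4.3.3, eBayes with trend) on log2(FPKM + 1), for genes averaging 1 FPKM or more across the fitted libraries, in 11 comparisons with Benjamini-Hochberg adjustment over all genes tested. The script was tested on simulated data. The pseudocount shrinks differences of low genes such as Car9. Genotype was in the models of cultures and allografts, apart from the comparison of Brca1hom with Brca1het. Correlations and figures were made in Python 3.11.15 with scipy 1.17.1, numpy 2.4.6, pandas 2.3.3 and matplotlib 3.10.9.

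The members and lists were chosen with earlier results of these data known. The text names the 10 members, the oxygen sensors and HIF subunits, the 5 genes most like the members, and from each pathway list up to 3 called genes per direction by size of the difference. A gene that this rule names is not reported here. In the table of cancers the titles give a cancer number, so same-numbered libraries share a cancer and were fitted as a block in an alternative. Their deviations correlated at −0.055, −0.11 and 0.24 over 12266 genes. Other alternatives were a pseudocount of 0.1, a filter at 5 FPKM or none, rescaling by median ratios, no genotype, CRC allografts 10B and 10C averaged, and each library left out.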

Additional observations from a re-analysis of the deposited data

Results flagged for a closer look

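Among the 7 CRC allografts, number 2 lay far above the rest for 3 of the 10 genes by Dixon's criterion on FPKM. That criterion flags about 1 in 20 groups by chance, and it was not applied on the log2 scale of the tests. In CRC allograft 2 Slc2a1 was 133.25 FPKM against 62.67 in the next library, Ldha 1013.4 against 651.55, and Aldoa 1009.3 against 712.01. These 3 genes go together over the 10 allografts, with r from 0.804 to 0.935, so they are not 3 separate flags. The change in Vegfa from culture to allograft differed between the media by 3.2378 on the log2 scale in the interaction test (limma adjusted p = 0.00874), with a difference of 0.53 in CRC cells and −2.70 in EpiC cells.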

How the results depend on the processing

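Of the 1792 values of members under alternatives, 0 of those called as reported changed sign, 37 lost the call and 296 kept it. In the cultures 2 members were called with no genotype in the model, Pdk1 joining Vegfa (adjusted p = 0.0471), and 0 to 1 with a library left out. The left-out ranges were 5 to 7 members for allografts against cultures, 2 to 5 for CRC and 1 to 7 for EpiC allografts against their cultures, and 0 to 1 for EpiC cultures against cancers. Without CRC allograft 2 and EpiC allograft 5A together, chosen after seeing that they held the highest levels, which lowers the allografts by construction, 7 were called in EpiC cells. With the replicate block, the number of the cancer, 0 members were called in the 3 comparisons of cancers, and Egln3 kept an adjusted p of 0.144 in EpiC cultures against cancers.

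Counts over all genes moved by more than 1.5 times in several settings. Those of the cultures went from 2741 to 1658 with no filter and to 159 to 2091 with a library left out. EpiC allografts against cultures gave 1750, 1154 with the filter at 5 FPKM, and 997 to 2200 with a library left out; the interaction gave 1506, 1000 and 760 to 2243. CRC against EpiC allografts gave 1, and 0 to 47 with a library left out; Brca1hom against Brca1het gave 0, and 0 to 26; CYP19A1 against Brca1het gave 2, and 0 with no filter, at 5 FPKM or with 10B and 10C averaged. CRC cultures against cancers gave 109, 284 with no filter, 59 at 5 FPKM and 58 with the block; EpiC cultures against cancers gave 83, 284, 43 and 29. With a library left out these ran from 0 to 272 and from 0 to 284, and CRC against EpiC cultures of cancers, 1 as reported, ran from 0 to 12. Rescaling moved the median of all genes from −0.08 to 0.02 in CRC against EpiC cultures of cancers. FPKM does not hold the depth, so counting error limits low genes such as Car9 by an unknown amount.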
